A study of Mus musculus with 28 samples.

Results

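The comparison described here sets 5 villin-PPARD mice of 55 weeks against 5 wild-type (WT) littermates of the same age, 10 of the 28 libraries of the series, and covers all genes of the deposited count table. The libraries were chosen by their labels alone, as the transgenic and the wild-type samples labelled 55 weeks. In villin-PPARD mice the promoter of the villin gene, which is active in gut epithelium, drives the nuclear receptor PPARD. Neither the species of the transgene's coding sequence nor the sex of the animals is given in the sources used here. Epithelial cells were scraped by hand from the opened stomach, in the corpus region, so the material is not a sorted population. The remaining 18 libraries come from mice of the same genotypes at 10 and 25 weeks. They share the estimate of the spread between libraries in the main tests of single genes below.

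The mucosa of the gastric corpus is built of glands with a fixed set of cells. Surface pit cells make protective mucus, neck cells make a second kind of mucus, parietal cells secrete acid, chief cells secrete digestive enzymes, and scattered endocrine cells release hormones. When parietal and chief cells are lost, the gland base can take on a mucous type known as spasmolytic polypeptide-expressing metaplasia (SPEM), and cells of intestinal type can also appear. PPARD is a receptor for fatty acids that binds DNA with a retinoid X receptor and switches on genes of lipid handling.

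Total counts of the 10 libraries ranged from 12103749 to 30891108. They averaged 17259063 ± 4489553 (SD, n = 5) in WT and 23262562 ± 4937230 (SD, n = 5) in villin-PPARD (two-sided exact permutation p = 0.0714, adjusted over 3 library measures 0.0714). The 10 most abundant genes took 33.3% ± 2.73 of counts in WT and 14.6% ± 0.617 in villin-PPARD (SD, n = 5 each, exact permutation p = 0.00794, the smallest that 5 against 5 allows, adjusted p = 0.0119). Genes of the mitochondrial genome took 11.9% ± 5.47 and 3.24% ± 1.3, with the same exact permutation p of 0.00794 (SD, n = 5 each). The highest mitochondrial share, 20.4%, was that of WT replicate 2. Gm42418, a locus that overlaps ribosomal RNA sequence, was among the 10 most abundant genes in both genotypes, at 25725 ± 8998 in WT and 15121 ± 4109 CPM in villin-PPARD, with groups that overlapped. Of the variance of log2 counts, the first principal component carried 79.7% and separated the genotypes, and the second, with 6.51%, set villin-PPARD replicates 2 and 3 apart from replicates 1 and 4.

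**Figure D1:**
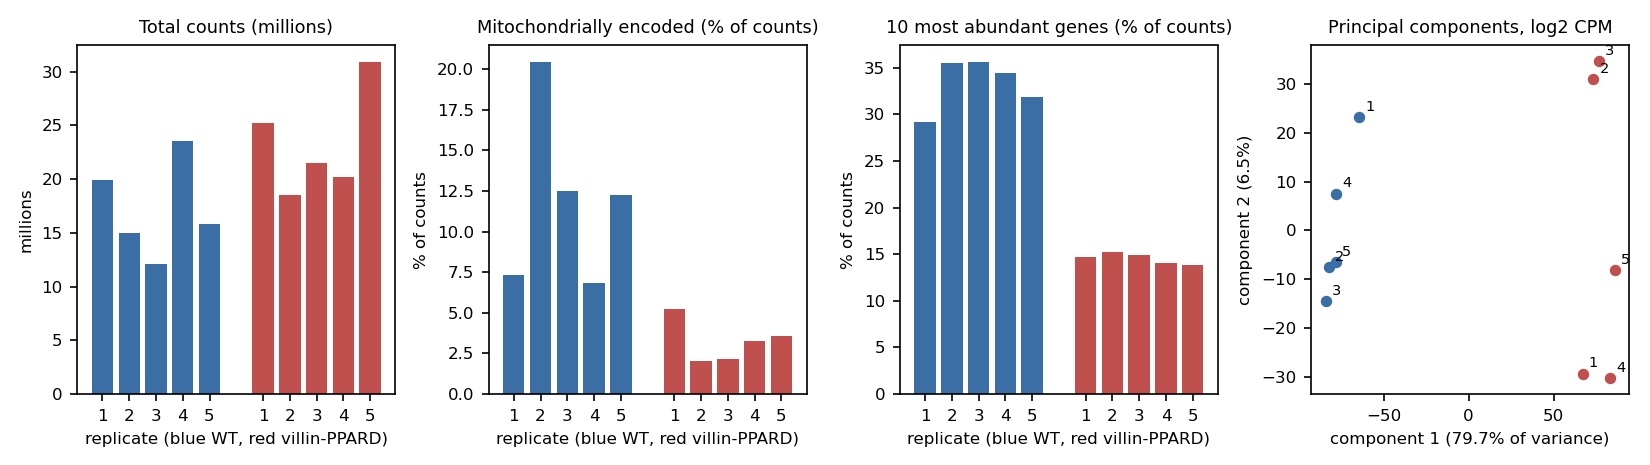
Total counts, the percentage of counts from mitochondrially encoded genes and from the 10 most abundant genes, each as 1 bar per library from 0, and the first and second principal components of scaled log2 counts with the replicate number beside each point. Blue is WT and red is villin-PPARD at 55 weeks. All 5 villin-PPARD libraries lie below all 5 WT libraries in both shares, and the first component, 79.7% of the variance, separates the genotypes.

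Levels are given as CPM, counts brought to a common library total and scaled by the trimmed mean of M values (TMM), as mean ± SD of 5 libraries or as the 5 values of replicates 1 to 5, and every difference is the log2 of villin-PPARD over WT. CPM is not divided by gene length, so it compares libraries and not genes. Of 15812 genes tested, 9380 passed an adjusted p of 0.05 in the quasi-likelihood test of edgeR, adjusted by Benjamini and Hochberg's method, or 59.3%. Of these, 5009 were higher in villin-PPARD (31.7% of the tested genes) and 4371 lower (27.6%). At least a 2-fold change went with the call in 4057 genes (25.7%). The 2 groups of libraries did not overlap in 6844 genes (43.3%). These shares are the background against which each list of genes is read. The median difference of all tested genes was 0.03 with TMM scaling. Scaling by library size alone moved all differences up by a median of 0.40 and put 8645 genes higher against 2310 lower, 78.9% of calls against 53.4% with TMM. A small fall is therefore not firm in direction, and those that turn are named where they occur.

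The mouse gene for the receptor that the transgene encodes gave a small difference. Ppard, on chr17:28232700-28301474 in GRCm38, was at 85.6, 83.1, 72.2, 80.4 and 75.9 CPM in WT and 84.7, 102, 93.8, 98.9 and 87.2 CPM in villin-PPARD. The groups overlapped, at 79.4 ± 5.42 in WT and 93.3 ± 7.3 CPM in villin-PPARD (log2 difference 0.23 ± 0.09 (SE), adjusted p = 0.0307). That call was lost without any of 5 single libraries, WT replicates 3 and 5 and villin-PPARD replicates 2, 3 and 4, where the adjusted p ran from 0.0524 to 0.0927, and with the replicate number as a block (adjusted p = 0.0604). Whether reads of the transgene are counted under this symbol is not given in the sources used here. Vil1, which encodes villin, the bundler of microvillus actin whose promoter drives the transgene, was at 55.6, 41.9, 42.1, 41.3 and 41.3 CPM in WT and 383, 441, 458, 407 and 466 CPM in villin-PPARD. Every villin-PPARD library was above every WT library (log2 difference 3.28 ± 0.20 (SE), adjusted p = 6.7e-14). Whether any reads of the transgene are counted under Vil1 is not given either.

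Acid-secreting parietal cells and enzyme-secreting chief cells had most of their markers lower. Of 20 parietal markers, 16 fell, 1 rose and 3 did not pass the test, with a median difference of -2.49. Atp4a, the catalytic subunit of the acid pump on chr7:30712209-30725534, was at 3732, 3634, 5551, 6421 and 5032 CPM in WT and 279.8, 278, 102, 101 and 162 CPM in villin-PPARD. Its mean in villin-PPARD was 26.4-fold lower (log2 difference -4.72 ± 0.28 (SE), adjusted p = 2.6e-14), and no library of one genotype reached the range of the other. Atp4b, the pump's other subunit, had a difference of -4.84 ± 0.32 (SE). Hrh2, the histamine receptor that starts acid secretion, averaged 36.4 ± 6.52 in WT and 1.65 ± 0.564 CPM in villin-PPARD, and the potassium channel genes Kcnj16 and Kcnj15 fell by 25.5-fold and 6.33-fold. Chrm3, the acetylcholine receptor of these cells, was the member that rose (log2 difference 0.47 ± 0.17 (SE), adjusted p = 0.0177), and the call was lost when only the 10 libraries of 55 weeks were fitted (adjusted p = 0.0629) or without WT replicate 1, villin-PPARD replicate 4 or villin-PPARD replicate 5 (adjusted p = 0.054 to 0.0746). Summed over its members the list lay between 3070 and 4634 CPM in villin-PPARD and between 10996 and 15033 CPM in WT. In bulk RNA, fewer cells of a type and less RNA per cell cannot be told apart.

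Most chief cell markers fell as well. Among the 11 tested of 14 listed, 10 fell and none rose (median -3.92). Pgc, which encodes pepsinogen C (chr17:47726842-47734482), was at 18482, 57440, 68662, 66754 and 44050 CPM in WT and 1213, 996, 385, 271 and 552 CPM in villin-PPARD. It was the second most abundant gene of the WT libraries and fell 74.7-fold (log2 difference -6.22 ± 0.44 (SE), adjusted p = 1.3e-12). Gif, intrinsic factor for vitamin B12 uptake, was at 965, 2136, 1902, 1818 and 1504 CPM in WT and 23.2, 31.7, 4.43, 6.33 and 22.3 CPM in villin-PPARD and fell 94.5-fold (adjusted p = 8.0e-12). Bhlha15, the transcription factor that builds the secretory apparatus of enzyme cells, averaged 26.9 ± 9.38 in WT and 1.76 ± 0.728 CPM in villin-PPARD. Chia1, an acidic chitinase of chief cells, had the most negative difference of any gene named by rule, from 8587 ± 3875 in WT to 18.8 ± 11.4 CPM in villin-PPARD, 456-fold. Clps (colipase), Rnase1 (a secreted ribonuclease) and Pla2g1b (a secreted phospholipase) fell by 190.0-fold, 28-fold and 349.8-fold. The list's sum was 26394 to 99451 CPM in WT and 689 to 1738 CPM in villin-PPARD. Of 15 pancreatic acinar markers, 5 enzyme loci and 2 transcription factors were tested, and these 7 fell (median -4.64). The other 8 lay under the filter on low counts, at most 21 counts over the libraries of a genotype, and not all were lower in villin-PPARD (Ctrb1, a chymotrypsinogen gene, had 7 counts in WT and 14 in villin-PPARD). The factors Ptf1a and Rbpjl were at 1.58 ± 0.255 in WT and 0.153 ± 0.123 CPM in villin-PPARD, and at 2.24 ± 0.724 in WT and 0.0469 ± 0.068 CPM in villin-PPARD.

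**Figure D2:**
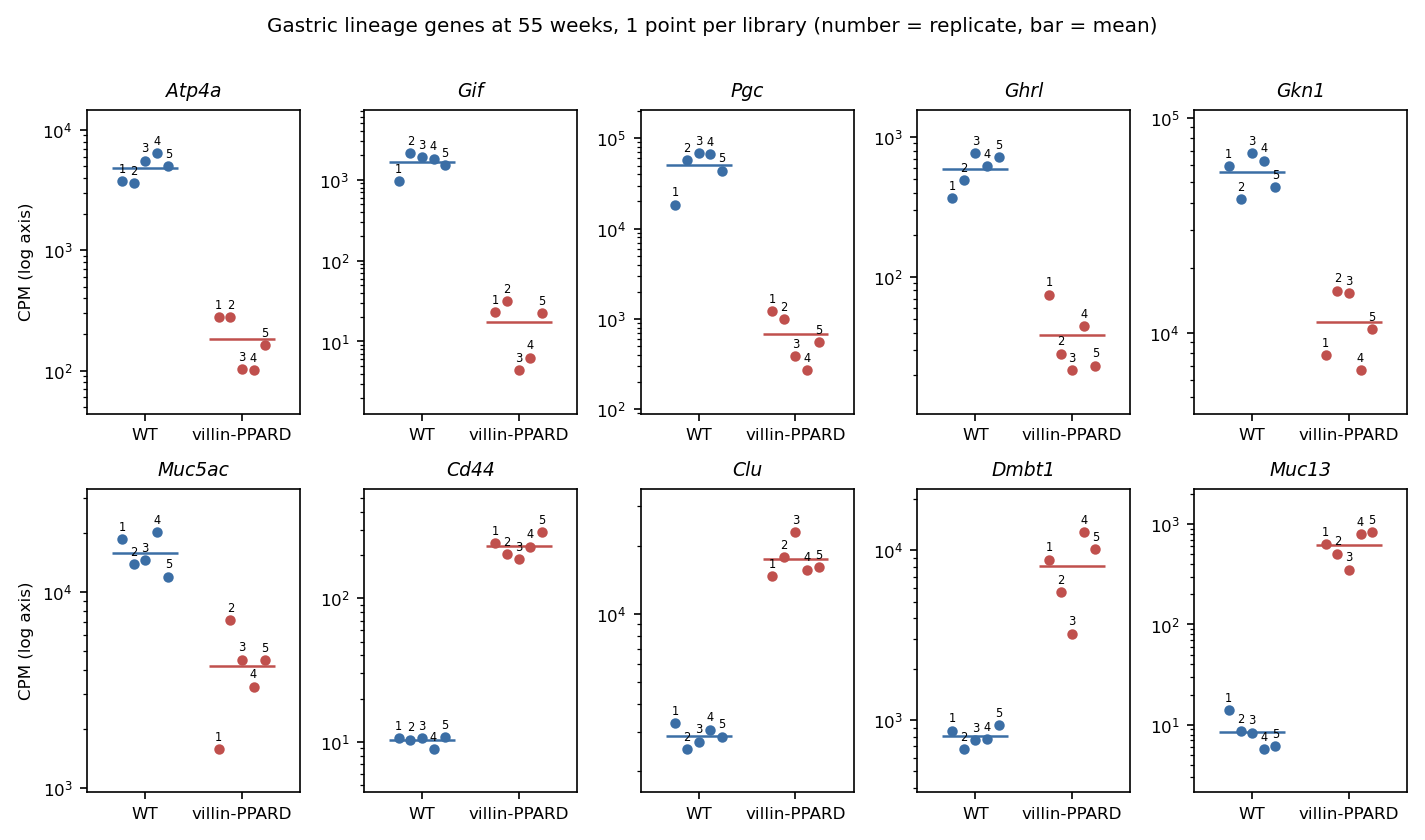
CPM on a log axis of 10 genes at 55 weeks, 1 point per library with its replicate number and a bar at the mean of 5, WT in blue and villin-PPARD in red. Atp4a, Gif, Pgc, Ghrl, Gkn1 and Muc5ac are lower, and Cd44, Clu, Dmbt1 and Muc13 higher, in every villin-PPARD library than in any WT library.

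Most endocrine cell markers fell. Of 20 tested endocrine markers of 22, 15 fell and 1 rose (median -2.76). Sst, the somatostatin gene whose product restrains acid secretion, was at 56.7, 79.8, 108, 104 and 97.4 CPM in WT and 2.11, 2.82, 1.69, 1.04 and 1.49 CPM in villin-PPARD. The fall was 49.2-fold (log2 difference -5.62 ± 0.30 (SE), adjusted p = 1.8e-14). Ghrl, which encodes the hunger hormone ghrelin, averaged 592 ± 165 in WT and 38.4 ± 22.1 CPM in villin-PPARD, a 15.4-fold fall. Scg2 and Scg5, proteins of hormone granules, and Isl1, an endocrine transcription factor, fell 32-fold, 10.7-fold and 12.5-fold. Gast, the gastrin gene, was among the 4 that did not pass the test (log2 difference -1.57 ± 1.07 (SE), adjusted p = 0.216), with Ddc, Tph1 and Rfx6. Slc18a1, a vesicular monoamine transporter, was the member that rose, at 0.458 ± 0.218 in WT and 1.43 ± 0.272 CPM in villin-PPARD.

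Most pit cell genes, the mucus genes among them, fell too. Of 16 pit markers, 12 fell and 2 rose (median -0.97). Gkn1 (gastrokine 1), the most abundant WT gene, was at 59616, 41680, 68358, 63114 and 47383 CPM in WT and 7842, 15674, 15225, 6689 and 10379 CPM in villin-PPARD. Its groups did not overlap (log2 difference -2.33 ± 0.21 (SE), adjusted p = 1.2e-10). Its relative Gkn2 fell 3.97-fold. Muc5ac, the mucin of surface mucus, averaged 15836 ± 3451 in WT and 4197 ± 2043 CPM in villin-PPARD and fell 3.77-fold. Tff1, a trefoil peptide secreted with that mucin, fell 1.97-fold and was still the most abundant gene of the villin-PPARD libraries at 46134 ± 5299 in WT and 23364 ± 5840 CPM in villin-PPARD. Psca, a surface antigen, and the calpains Capn9 and Capn8 fell by 5.16-fold, 5.9-fold and 3.85-fold. Muc1, a membrane mucin, and Krt20, a keratin of mature surface cells, rose 2.06-fold and 3.04-fold.

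Markers of mucous neck cells and SPEM split, with 13 of 18 higher, 4 lower and a median of 1.83. Clu (clusterin), a secreted chaperone, rose from 2886 ± 298 in WT to 17486 ± 3308 CPM in villin-PPARD and became the second most abundant gene of the villin-PPARD libraries (log2 difference 2.60 ± 0.21 (SE), adjusted p = 9.4e-12). Cd44, a hyaluronan receptor used as a SPEM marker, was at 10.6, 10.3, 10.6, 8.92 and 10.8 CPM in WT and 242, 203, 188, 229 and 289.8 CPM in villin-PPARD. The rise was 22.5-fold with no overlap. Olfm4, a secreted glycoprotein, and Dmbt1, a mucosal scavenger protein, rose 58.9-fold and 10.1-fold. The transcription factor Sox9 averaged 30.5 ± 7.46 in WT and 97.3 ± 29.9 CPM in villin-PPARD. Muc6, the mucin that defines neck cells, went down instead, at 692 ± 168 in WT and 221 ± 127 CPM in villin-PPARD (log2 difference -1.65 ± 0.31 (SE), adjusted p = 7.0e-05), and so did Agr2, Anxa13 and Aqp5, by 1.93-fold, 1.83-fold and 2.4-fold. Not all neck cell genes fell, since Gkn3, a gastrokine gene of these cells, rose (log2 difference 2.64, adjusted p = 4.0e-08). Tff2, the spasmolytic polypeptide itself, did not pass the test (log2 difference -0.27 ± 0.19 (SE), adjusted p = 0.236), and its difference was 0.12 when scaled by library size alone.

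Genes listed as intestinal markers moved in both directions. Among 27 tested of 35, 17 rose and 7 fell (median 2.36). A member with hardly any WT counts, such as Mep1b, could pass the filter on low counts only where it was higher in villin-PPARD. Muc13, a membrane mucin, was at 14, 8.72, 8.37, 5.75 and 6.09 CPM in WT and 629.9, 507, 352, 789 and 834 CPM in villin-PPARD. All villin-PPARD libraries were far above WT (log2 difference 6.18 ± 0.38 (SE), adjusted p = 7.0e-13). Muc3, another membrane mucin, and Mep1b, a brush-border protease, had WT means of 0.265 and 0.0981 CPM and rose to 104 ± 33.3 and 42.5 ± 13.9 CPM. Muc2, the goblet cell mucin, fell from 2.09 ± 0.345 in WT to 0.281 ± 0.085 CPM in villin-PPARD, and the lipoprotein genes Apoa1 and Apoa4 and the aminopeptidase Anpep fell 28.7-fold, 39.4-fold and 6.39-fold. The intestinal master regulators were close to absent in both genotypes. Cdx1 had 0 counts in all 10 libraries, and Cdx2 had 2 counts over the WT libraries and 12 over the villin-PPARD libraries. Sis, the brush-border sucrase, also had 0 counts, and Cdh17 (liver-intestine cadherin) had 0 against 50 counts. These genes lay under the filter on low counts and were not tested.

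Transcription factors of stomach identity were divided, with 5 of 15 higher and 6 lower, against 31.7% and 27.6% of all tested genes. Foxa1, Ehf, Klf5 and Pdx1, the last a factor of antrum and pancreas, rose 2.37-fold, 3.79-fold, 2.56-fold and 7.12-fold. Foxa2, a forkhead factor of endoderm, fell 4.81-fold (log2 difference -2.27 ± 0.15 (SE), adjusted p = 1.4e-13), and Gata4 and Foxa3 had differences of -0.68 and -0.74. Gata6 fell by a smaller amount (log2 difference -0.40 ± 0.12 (SE), adjusted p = 0.00512), a call not kept with scaling by library size alone (adjusted p = 0.916). Among 20 stem cell and Wnt genes, 8 rose and 4 fell, near the background of 59.3% called. Prom1, Myc and Ccnd1, the last a cyclin of the step into division, rose 4.12-fold, 4-fold and 2.8-fold. Lgr5 is a receptor listed here with stem cell genes. Its level was 4.45, 7.98, 6.41, 5.66 and 5.66 CPM in WT and 0.655, 0.136, 0.423, 0.633 and 0.183 CPM in villin-PPARD. Lgr5 fell 14.4-fold with no overlap between the groups. Tnfrsf19 and Smoc2, of the same list, fell 9.45-fold and 5.41-fold. Which cells of the corpus carry Lgr5, Tnfrsf19 and Smoc2 was not tested.

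Genes of cell division rose as a block. All 21 mitosis genes and all 23 DNA replication genes passed the test upwards, against a background of 31.7%, with medians of 1.65 and 1.41. Mki67, the proliferation antigen, averaged 83 ± 8.13 in WT and 186 ± 28.3 CPM in villin-PPARD. Top2a, the topoisomerase of dividing chromosomes, was at 29.4, 29.4, 26.6, 30.3 and 32.5 CPM in WT and 109, 109.9, 114, 97.2 and 114 CPM in villin-PPARD. The groups were far apart, with little spread within either. The DNA replication genes Mcm10, Mcm5 and Mcm4 rose 4.69-fold, 4.72-fold and 4.05-fold, and Rrm2, which supplies deoxynucleotides, 4.63-fold. Of 14 p53 and senescence genes, 6 rose and 2 fell, near the background of 59.3% called. Cdkn2a, an inhibitor of cell cycle entry, averaged 0.065 ± 0.0769 in WT and 1.32 ± 0.276 CPM in villin-PPARD, and Gdf15, a stress cytokine, 0.292 ± 0.187 in WT and 5.7 ± 1.92 CPM in villin-PPARD. Cdkn1a, the p21 gene and the best known p53 target, fell (log2 difference -0.70 ± 0.15 (SE), adjusted p = 1.9e-04).

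Genes induced by interferon were higher in all villin-PPARD libraries. The 32 listed members rose without exception and with no overlap between groups, at a median of 3.58, where 43.3% of all tested genes had groups that did not overlap. Interferon signalling ends in a complex of transcription factors that binds a DNA element read here as GAAA, any pair of bases and GAAA again. Ifi44 was at 0.651, 0.739, 0.267, 0.407 and 0.431 CPM in WT and 52.8, 49.3, 46.4, 45.8 and 53.8 CPM in villin-PPARD. The transgenic values lay within a narrow band and the rise was 97.1-fold (log2 difference 6.60 ± 0.28 (SE), adjusted p = 7.1e-17). Slfn2 and Trim30a, regulators of immune cell quiescence and of innate sensing, rose 74.1-fold and 44.6-fold, and Bst2 (tetherin), which holds back budding viruses, 20.8-fold. Slfn4, a schlafen gene of the interferon response, averaged 5.82 ± 1.62 in WT and 173 ± 47.7 CPM in villin-PPARD. The factor genes Stat2 and Irf9 had differences of 1.87 and 1.22, and Irf7, the factor that amplifies the response, 3.33.

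Stretches before the start site of 6 of these genes are shown because the whole list moved together, with that element or its reverse complement in capitals. They are RefSeq sequences of GRCm38.p6, written 5′ to 3′ on the strand of the gene, from the 250 bases before the start.
Ifit1 (chr19:34640760-34640838, + strand): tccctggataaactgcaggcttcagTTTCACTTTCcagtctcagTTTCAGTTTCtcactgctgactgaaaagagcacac
Isg15 (chr4:156200850-156200921, - strand): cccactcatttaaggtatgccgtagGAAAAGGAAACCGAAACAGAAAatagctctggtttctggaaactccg
Gbp2 (chr3:142620579-142620638, + strand): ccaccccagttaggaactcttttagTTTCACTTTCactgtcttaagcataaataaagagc
Bst2 (chr8:71537562-71537627, - strand): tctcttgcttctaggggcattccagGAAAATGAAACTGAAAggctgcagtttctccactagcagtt
Oas3 (chr5:120777700-120777759, - strand): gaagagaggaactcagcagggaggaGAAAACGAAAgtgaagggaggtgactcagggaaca
Stat2 (chr10:128270251-128270310, + strand): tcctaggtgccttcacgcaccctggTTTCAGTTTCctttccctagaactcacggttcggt
The motif, searched on both strands with overlapping matches merged, was in 12 of the 24 list members with a sequence, and in 3.46% of the 27025 genes with one. A match is a description of the letters. The genes shown rose by 5.09 (Ifit1, which binds foreign RNA caps), 4.55 (Isg15, a ubiquitin-like modifier), 4.75 (Gbp2, a GTPase against intracellular microbes), 4.38 (Bst2), 5.47 (Oas3, a sensor of double-stranded RNA) and 1.87 (Stat2) on the log2 scale.

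MHC class I genes, which display peptides to cytotoxic T cells, rose in all 12 tested cases (median 2.37). B2m, the invariant chain of class I, was at 323, 260.1, 290.3, 271 and 248 CPM in WT and 1652, 1414, 1275, 1925 and 2196 CPM in villin-PPARD. The heavy chain gene H2-K1 averaged 200.2 ± 25.1 in WT and 1412 ± 273 CPM in villin-PPARD, and H2-D1 reached the 10 most abundant genes of villin-PPARD at 1116 ± 185 in WT and 4636 ± 527 CPM in villin-PPARD. Psmb8 and Psmb10, subunits of the immunoproteasome that cuts the peptides, rose 28.9-fold and 5.17-fold.

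MHC class II genes, which display peptides to helper T cells, also rose in all 7 tested cases (median 2.64), but with a wide spread among the villin-PPARD libraries. H2-Aa, a class II alpha chain, was at 22.2, 17.9, 27.4, 23.5 and 24.7 CPM in WT and 111, 39.3, 45.4, 261 and 201 CPM in villin-PPARD. Replicates 2 and 3 of villin-PPARD were the lowest of their group and still above all WT libraries (log2 difference 2.51 ± 0.43 (SE), adjusted p = 2.3e-05). Ciita, the master regulator of class II genes, averaged 1.14 ± 0.22 in WT and 10.9 ± 8.82 CPM in villin-PPARD, and Cd74, the invariant chain, 75.4 ± 13.7 in WT and 584 ± 450.1 CPM in villin-PPARD. The list's sum ran from 266 to 1843 CPM in villin-PPARD and from 121 to 171 CPM in WT. The Y box of class II promoters, CTGATTGG, was in 2 of 4 members with a sequence and in 4.43% of all genes with one, and both stretches are given with it in capitals.
H2-Aa (chr17:34287842-34287899, - strand): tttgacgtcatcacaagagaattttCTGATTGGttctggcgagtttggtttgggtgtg
H2-Eb1 (chr17:34305780-34305837, + strand): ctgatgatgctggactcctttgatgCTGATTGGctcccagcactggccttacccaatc
H2-Eb1, a class II beta chain, had a difference of 2.64 and groups that overlapped.

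Markers of most leukocyte classes listed were higher where they could be tested. Of 20 tested myeloid markers of 22, 16 rose, as did the 6 tested of 14 T and natural killer markers and the 8 tested of 12 B and plasma cell markers. A member with hardly any WT counts, such as Gzmb, could pass the filter on low counts only where it was higher in villin-PPARD. The 8 T and natural killer markers under the filter had 4 to 15 counts over the WT libraries and 2 to 115 over the villin-PPARD libraries, and not all were higher there (Cd3d 13 and 115, Cd8a 8 and 13, Klrb1c 15 and 8). Mast cell markers were divided, with 2 of 9 tested members higher and 6 lower (median -1.13). Their sums did not fall, at 72.7 to 111 CPM in WT and 96.1 to 215 CPM in villin-PPARD. The medians of the other 3 lists were 1.02, 2.04 and 2.78. Igha, the heavy chain of IgA, was at 102, 134, 248, 148 and 194 CPM in WT and 1579, 696, 1410, 2109 and 1510 CPM in villin-PPARD. Jchain, which joins IgA units, rose 7.11-fold, and Pigr, the epithelial receptor that carries IgA into the lumen, averaged 55.4 ± 23.3 in WT and 5728 ± 1308 CPM in villin-PPARD, a 104-fold rise. Cd3e, a chain of the T cell receptor complex, stayed low at 0.594 ± 0.213 in WT and 2.55 ± 1.24 CPM in villin-PPARD, and Cd14, a receptor for bacterial lipopolysaccharide, rose 26-fold. Gzmb, a protease of cytotoxic granules, had 2 counts over the WT libraries and 320 over the villin-PPARD libraries, a ratio of 89.7 (95% counting interval 24.6 to 744). The myeloid list summed to 144 to 161 CPM in WT and 326 to 589 CPM in villin-PPARD, and the B and plasma cell list to 217 to 457 and 1147 to 3770 CPM. For T and natural killer cells the sums were at most 25.2 CPM. How far these cells carry the rise of MHC, cytokine and checkpoint genes was not tested.

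**Figure D3:**
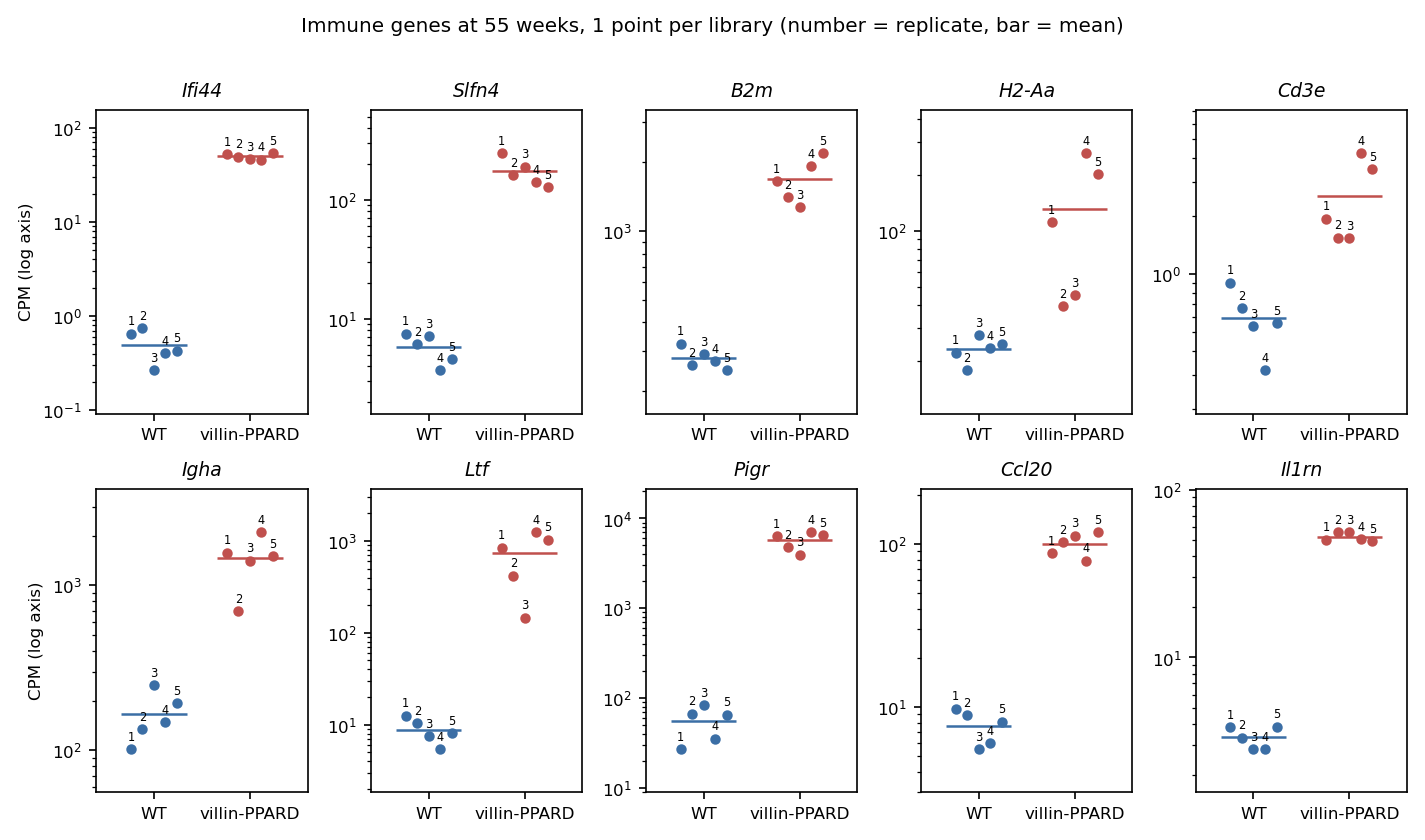
CPM on a log axis of 10 immune genes at 55 weeks, 1 point per library with its replicate number and a bar at the mean of 5, WT in blue and villin-PPARD in red. Groups are separate in all 10 panels, Ifi44 varies little among villin-PPARD libraries, and replicates 2 and 3 are the lowest villin-PPARD libraries for H2-Aa and Ltf.

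Cytokine, chemokine and acute-phase genes rose in 23 of 27 tested cases (33 listed) and fell in 1 (median 3.65). Members with hardly any WT counts, such as Cxcl5, Cxcl2 and Nos2, could pass the filter on low counts only where they were higher in villin-PPARD. Ccl20, which draws cells bearing CCR6, was at 9.76, 8.87, 5.52, 6.02 and 8.12 CPM in WT and 88, 102, 112, 78.8 and 118 CPM in villin-PPARD. It rose 13-fold. Cxcl5, a neutrophil attractant, was at 0.2, 0, 0.178, 0.0905 and 0 CPM in WT and 43.6, 26.1, 10.7, 72.9 and 60.3 CPM in villin-PPARD. Its villin-PPARD values spanned a wide range, with replicates 2 and 3 lowest (log2 difference 8.71 ± 0.71 (SE), adjusted p = 1.4e-10). Il1a and Tnf, inflammatory cytokines, and Il1rn, the natural antagonist of interleukin 1, rose 69.4-fold, 57.4-fold and 15.5-fold. Nos2, which makes nitric oxide in inflammation, had 2 counts in WT and 899 in villin-PPARD over the 5 libraries, a ratio of 252 (95% counting interval 69.6 to 2084). Il18 was the member that fell (log2 difference -1.37 ± 0.13 (SE), adjusted p = 3.2e-10). Il33, an alarmin of epithelial nuclei, did not pass the test at 55 weeks (log2 difference -0.23 ± 0.23 (SE), adjusted p = 0.4), and scaling by library size alone gave 0.15.

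The letters GGGA and TTCC with any pair of bases between them, a form of the NF-kB site, were in 4 of the 21 tested cytokine list members with a sequence and in 1.36% of all genes with one. The 3 neutrophil attractant genes among them are shown with the matched letters in capitals.
Cxcl1 (chr5:90891149-90891209, + strand): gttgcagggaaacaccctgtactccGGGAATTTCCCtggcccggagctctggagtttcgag
Cxcl2 (chr5:90903777-90903837, + strand): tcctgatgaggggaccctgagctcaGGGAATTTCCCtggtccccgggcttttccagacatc
Cxcl3 (chr5:90786003-90786063, + strand): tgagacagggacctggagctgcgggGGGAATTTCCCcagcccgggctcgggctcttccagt
Cxcl1 averaged 0.351 ± 0.223 in WT and 6.81 ± 2.97 CPM in villin-PPARD, and Cxcl2 had 3 counts over the WT libraries against 521 in villin-PPARD, a ratio of 97.4 (95% counting interval 33.1 to 474).

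Antimicrobial genes rose in 11 of 12 tested cases (16 listed) (median 2.79). Nox1 and Lcn2, with hardly any WT counts, could pass the filter on low counts only where they were higher in villin-PPARD. Noxo1 and Nox1, an organizer and the catalytic subunit of an epithelial oxidase, rose to 67.4 ± 6.2 and 51.7 ± 37.4 CPM from 4.8 and 0.0585 CPM. Duox2, a second peroxide-making oxidase, rose 12.4-fold. Ltf (lactoferrin), which binds iron, was at 12.6, 10.4, 7.48, 5.43 and 8.12 CPM in WT and 848, 418, 146, 1252 and 1033 CPM in villin-PPARD. Lcn2, which captures bacterial siderophores, was at 0.1, 0.0739, 0.0891, 0.136 and 0 CPM in WT and 12.6, 3.5, 1.23, 24.5 and 16.6 CPM in villin-PPARD. In both genes villin-PPARD replicate 3 was the lowest of its group and replicate 4 the highest. Pglyrp1 and Slpi, a peptidoglycan binder and a protease inhibitor, rose 3.23-fold and 14.3-fold.

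All 11 tested of 12 checkpoint genes rose (median 2.33). Among them Ctla4, with hardly any WT counts, could pass the filter on low counts only where it was higher in villin-PPARD. Cd274, which encodes PD-L1, averaged 1.35 ± 0.134 in WT and 6.83 ± 3.36 CPM in villin-PPARD, and Vtcn1 (B7-H4), an inhibitory ligand of epithelia, rose 8.23-fold. Ido1, which degrades tryptophan, averaged 0.255 ± 0.127 in WT and 12.1 ± 9.33 CPM in villin-PPARD. Ctla4, a receptor of T cells, had 2 counts in WT and 209 in villin-PPARD, a ratio of 58.6 (95% counting interval 16 to 487).

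Growth factor, matrix and junction genes mostly rose. Of 11 tested genes of the epidermal growth factor family (12 listed), 8 rose and 1 fell. Hbegf, Btc and Ereg, ligands of the receptor Egfr, rose 1.96-fold, 2.45-fold and 8.87-fold, and Egfr itself and the ligand Areg had differences of 1.24 and 0.86 with overlapping groups. Egf fell (log2 difference -2.83 ± 0.38 (SE), adjusted p = 2.8e-07). Of 23 tested matrix remodelling genes (25 listed), 20 rose and 1 fell (median 1.17). Plaur, of the plasminogen system, Itga2, a collagen receptor, and Mmp10, a stromelysin, rose 4.86-fold, 35.9-fold and 14.1-fold, and the inhibitor Timp3 fell 2.37-fold. Among 13 tested claudins and tight junction genes (15 listed), 11 rose. Cldn2, a pore-forming claudin, was at 1.15, 2.22, 1.78, 1.4 and 2.58 CPM in WT and 243, 185, 156, 155 and 233 CPM in villin-PPARD. Cldn7, Cldn23 and Cldn4 rose 38.1-fold, 13.9-fold and 8.65-fold, while Cldn18, the stomach claudin, averaged 2021 ± 187 in WT and 2013 ± 279 CPM in villin-PPARD and did not pass the test (log2 difference -0.01 ± 0.12 (SE), adjusted p = 0.971). Its direction turned under library size alone, where it was called higher at 0.39. Of 8 epithelial keratins 3 rose and 1 fell, against a background of 59.3% called. Krt7, a keratin of simple ducts, rose 5.87-fold. Krt18 rose 1.24-fold, a call lost with the 10 libraries alone or without villin-PPARD replicate 2 or 3 (adjusted p = 0.0532 to 0.0751), and Krt23 fell by 0.46 on the log2 scale, a call lost with library size alone (adjusted p = 0.624). Krt8, among the 10 most abundant genes of villin-PPARD, did not pass the test (log2 difference 0.18 ± 0.15 (SE), adjusted p = 0.303) but did with library size alone (0.57). Of 14 angiogenesis genes 3 rose and 7 fell, against 31.7% and 27.6% of all tested genes. Among them were Vegfb (log2 difference -2.14 ± 0.26 (SE), adjusted p = 8.2e-08) and Nrp2, a semaphorin and growth factor receptor (a 5.66-fold rise, adjusted p = 9.5e-10).

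Genes tied to PPAR action did not move as a block. Of 30 tested PPAR target and fatty acid oxidation genes (34 listed), 4 rose, 11 fell and 15 did not pass the test, against a background of 59.3% called (median -0.31). That median became 0.07 with scaling by library size alone. Vnn1, a pantetheinase, was at 15.9, 7.91, 7.66, 8.19 and 9.23 CPM in WT and 523, 505, 475, 562 and 632 CPM in villin-PPARD. Plin2, a coat protein of lipid droplets, Acot1, an acyl-CoA thioesterase, and Angptl4, an inhibitor of lipoprotein lipase, rose 3.91-fold, 3.53-fold and 2.23-fold. Fabp3 and Cd36, carriers of fatty acids, fell 43.5-fold and 19.2-fold, Plin4 fell 5.45-fold, and Acadm, of fatty acid oxidation, had a difference of -0.80. Pdk4, which restrains glucose oxidation, did not pass the test (log2 difference -0.32 ± 0.28 (SE), adjusted p = 0.331) and was at 0.06 with library size alone. Among the receptors, Ppara fell 7.5-fold and Rxra, the partner in DNA binding, by 1.32-fold, the latter a call not kept with library size alone (adjusted p = 0.971). Of 10 tested receptors and partners (11 listed) 4 rose and 2 fell, near the background of 59.3% called. The rises were at most 0.31 on the log2 scale, with the coactivator genes Med1 and Ncoa2 at 0.23 and 0.31. A PPAR response element, the letters AGGTCA repeated after 1 free base, was in 0 of 23 members and in 0.0407% of all genes with a sequence, so the window says nothing of the factor.

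Lipid synthesis and energy genes differed in direction. Of 19 tested fatty acid and cholesterol synthesis genes (20 listed), 12 rose and none fell (median 0.40). Over all tested genes 59.3% were called, 31.7% higher and 27.6% lower. Scd2 and Scd1, fatty acid desaturases, rose 4.89-fold and 3.73-fold, and Acaca, which makes malonyl-CoA, and Srebf1, a regulator of the pathway, 2.14-fold and 1.92-fold. Of 30 nuclear-encoded respiratory chain genes 25 fell and none rose (median -0.53). With library size alone 10 fell, 1 rose and the median was -0.13. Ndufa4 and Ndufb9 fell 2.24-fold and 1.88-fold. Of 12 tested genes of the mitochondrial genome (13 listed) 9 fell, with mt-Co1, a cytochrome oxidase subunit, at 44782 ± 21255 in WT and 10555 ± 3701 CPM in villin-PPARD. Hk2, the inducible hexokinase of glycolysis, was at 18.7, 14.2, 11.4, 13.8 and 13.5 CPM in WT and 169, 177, 119, 238 and 228 CPM in villin-PPARD. It rose 12.9-fold, and of 16 glycolysis genes 6 rose and 1 fell, against 15 and 0 with library size alone. With TMM scaling, fewer of them were called than the 59.3% of all tested genes.

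Markers of other tissues and of handling were examined beside these results. Over all tested genes 59.3% were called. The endothelial and squamous lists lay near that share, and the fibroblast, smooth muscle, stress response and handling lists under it. Among the mast cell markers, the mucosal proteases Mcpt1 and Mcpt2 rose 10.6-fold and 3.82-fold, while Kit, Hdc, Tpsb2 and Cma1 were among 6 that fell. In the fibroblast list Thy1 and Fap rose and 4 of 16 fell, among them Mfap5 and Dpt, matrix proteins (-2.63 and -1.46). Of 12 tested endothelial markers (13 listed) 3 rose and 4 fell, with Vwf, a clotting protein, at 1.16 and Kdr, a receptor for vascular growth factor, at -1.07, a call lost with library size alone (adjusted p = 0.111). Fibroblast and endothelial lists had medians of 0.13 and -0.09, the latter 0.33 with library size alone. Of 13 smooth muscle markers 6 fell and none rose (median -0.67), and their sums were 142 to 218 CPM in WT and 94.9 to 136 CPM in villin-PPARD. The 4 tested of 6 erythroid markers fell, Hbb-bs from 50.7 ± 25.6 in WT to 8.4 ± 2.88 CPM in villin-PPARD. Squamous markers of the forestomach summed to 213 to 322 CPM in WT and 183 to 364 CPM in villin-PPARD, with 4 of 13 tested members (15 listed) higher and 4 lower, and Ivl, of the cornified envelope, was the member with the largest difference (log2 difference 3.95 ± 0.54 (SE), adjusted p = 7.5e-07). Of 16 unfolded protein and stress response genes 4 rose and 1 fell, with Pdia4, which folds secreted proteins, at 0.62 and Ddit3, a factor of stressed cells, at -1.29. Of 13 immediate early and handling genes 3 rose, among them the heat shock genes Hspa1a and Hspa1b (3.64-fold and 3.05-fold). The part of such markers in the results was not tested.

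The largest rises named by the rule were in genes close to silent in WT. Slc13a2, a transporter of citrate and succinate, had 0 counts in all WT libraries and was at 6.97 ± 2.23 CPM in villin-PPARD, at least 195-fold higher against a floor of 3 counts over the group. Khdc1a, Khdc1c, Vnn3 and Cyp2a5 were also at 0 in WT and at least 171-fold, 80.5-fold, 65.6-fold and 56.1-fold higher. Like Slc13a2, these genes could pass the filter on low counts only where they were higher in villin-PPARD. A ranking by log2 difference also favours genes with so few WT counts. Prap1 and Adgrg7 rose to 104 ± 63.3 and 185 ± 98.6 CPM from WT means of 0.118 and 0.212 CPM. Themis3, Wfdc18 and Mab21l3, at most 0.105 CPM on average in WT, reached 14.6, 14.2 and 26.1 CPM. Reg1, a secreted lectin of regenerating gut, averaged 0.747 ± 0.217 in WT and 173 ± 84.4 CPM in villin-PPARD. The largest falls besides the chief cell genes included Amy2b, an amylase locus annotated as an unprocessed pseudogene, with 235 counts over the WT libraries and 1 over the villin-PPARD libraries, a ratio of 419 (95% counting interval 74.5 to 16625), and Necab1, with a ratio of 394 (95% counting interval 70 to 15639). Cckar, the cholecystokinin receptor, fell 74.7-fold, and the estrogen-binding receptor gene Gper1 119.6-fold. Try10, a trypsin gene with close copies in the genome, Sostdc1, a secreted inhibitor of BMP and Wnt signals, and Nrn1, neuritin, had differences of -8.01, -6.28 and -6.08.

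**Figure D4:**
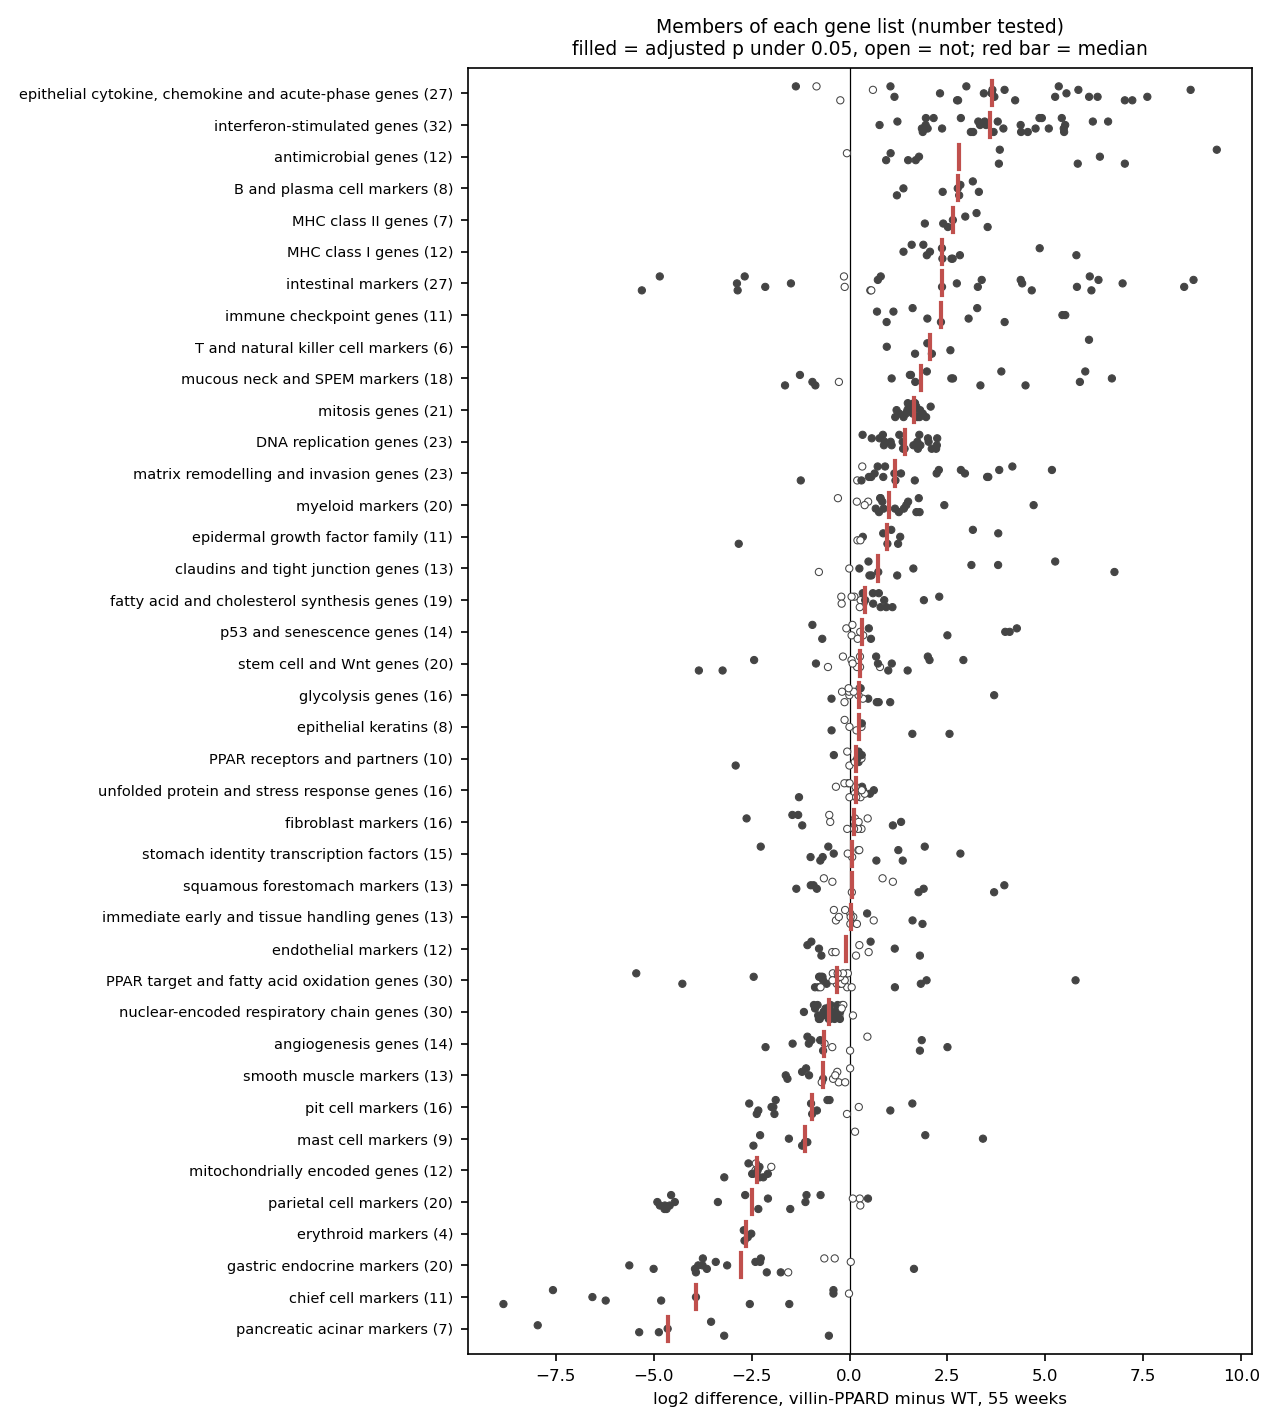
Log2 difference, villin-PPARD minus WT at 55 weeks, of each tested member of 40 gene lists, filled where the adjusted p was under 0.05, with the median as a red bar and the number tested in parentheses. Lists are ordered by median, from pancreatic acinar (-4.64) and chief cell markers (-3.92) to interferon-stimulated (3.58) and cytokine genes (3.65).

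The genotype difference itself differed between ages in many genes. From 10 to 55 weeks it changed in 36.4% of the tested genes, 2905 upwards and 2843 downwards, and from 25 to 55 weeks in 28.9%, 2255 upwards and 2315 downwards. The column names place all libraries of 55 weeks in a second library group with replicates 4 and 5 of 10 weeks. Within that library group, with 2 mice per genotype at 10 weeks, the change from 10 weeks was called in 3636 genes, 1856 upwards and 1780 downwards. No library of 25 weeks carries that group's name, so library group and age cannot be told apart there.

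Differences in the gastric lineage markers were smaller at the earlier ages. The parietal list had medians of -0.59 at 10 weeks, -0.68 at 25 weeks and -2.49 at 55 weeks, and the chief cell list -0.65, -1.05 and -3.92. Hrh2 differed by -0.57 at 10 weeks, -0.98 at 25 weeks and -4.46 at 55 weeks, with a change from 10 weeks of -3.89 ± 0.25 (SE), adjusted p = 2.0e-12. Pgc differed by -0.93 at 10 weeks, -1.56 at 25 weeks and -6.22 at 55 weeks, a change of -5.29 ± 0.53 (SE), adjusted p = 6.6e-09. Cd44 went the other way, with differences of 0.47 at 10 weeks, 1.59 at 25 weeks and 4.49 at 55 weeks, a change of 4.03 ± 0.32 (SE), adjusted p = 3.4e-10. MHC class II genes had medians of -0.15, -0.18 and 2.64 and no member called at the earlier ages, and H2-Aa changed by 2.70 ± 0.62 (SE), adjusted p = 0.00124 from 10 weeks. Interferon-stimulated genes were already high at 10 weeks, with medians of 4.43, 4.94 and 3.58. Slfn4 differed by 7.78 at 10 weeks, 8.42 at 25 weeks and 4.91 at 55 weeks, so that its rise was smaller at 55 than at 10 weeks (change -2.87 ± 0.39 (SE), adjusted p = 1.7e-06). Il33 was called higher at 10 and 25 weeks and not at 55, with differences of 2.12 at 10 weeks, 2.37 at 25 weeks and -0.23 at 55 weeks, a change of -2.36 ± 0.33 (SE), adjusted p = 3.1e-06.

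The lowest adjusted p of a change upwards belonged to C4bp, a regulator of complement, at both ages. It was at 3.4, 2.88, 3.65, 4.75 and 3.38 CPM in WT and 96.1, 97.7, 76.7, 122 and 132 CPM in villin-PPARD at 55 weeks, and its differences were -0.37 at 10 weeks, 0.09 at 25 weeks and 4.84 at 55 weeks. Fzd1, a Wnt receptor, had differences of -0.64 at 10 weeks, -0.53 at 25 weeks and 2.04 at 55 weeks. Rbbp7, a histone-binding protein, Brca1, of DNA repair, and Fads2, a fatty acid desaturase, were the others named for 10 weeks, and Shisa2, Tm7sf2, of cholesterol synthesis, and Shf for 25 weeks. Downwards, Gsdma2, a gasdermin, had differences of -0.45 at 10 weeks, -0.88 at 25 weeks and -3.22 at 55 weeks and was at 3553 ± 244 in WT and 381 ± 56.2 CPM in villin-PPARD at 55 weeks. Fgfbp1, a carrier of fibroblast growth factors, had differences of 0.30 at 10 weeks, 0.11 at 25 weeks and -2.87 at 55 weeks. Vars2, a mitochondrial transfer RNA synthetase, and Pstpip1, a cytoskeletal adaptor, were the others named for 10 weeks, and Gsdmc4, another gasdermin, and Dcbld2 for 25 weeks.

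**Figure D5:**
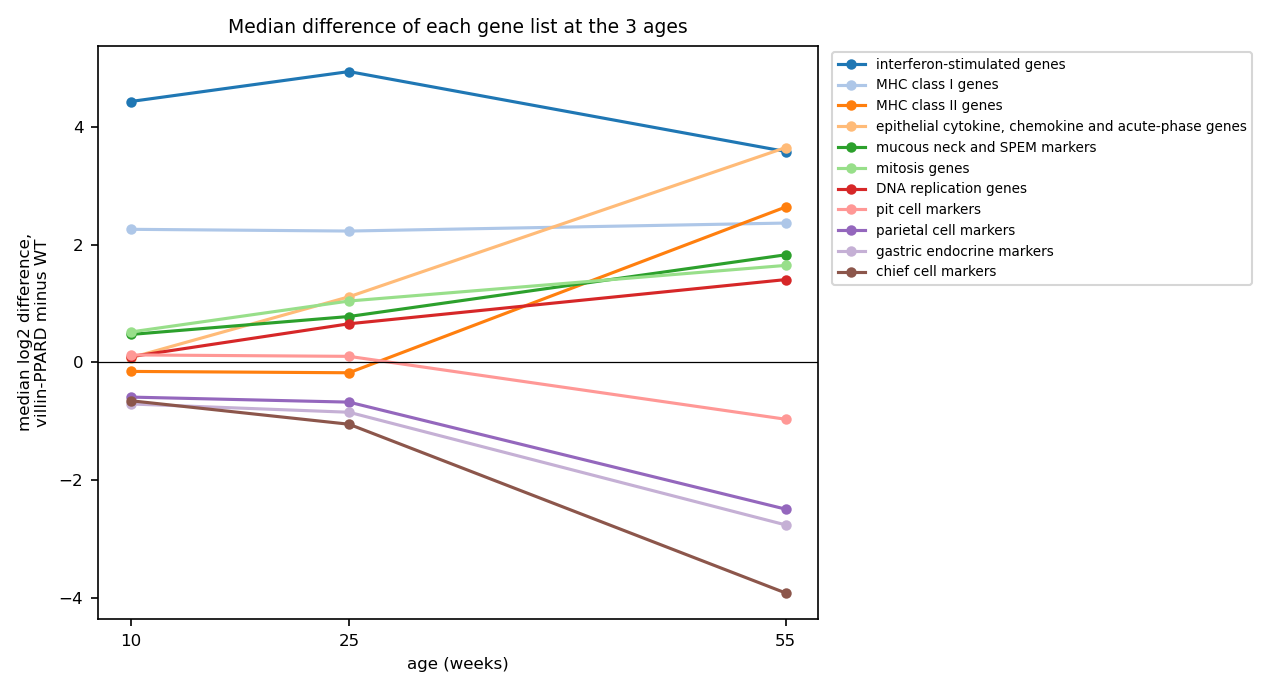
Median log2 difference, villin-PPARD minus WT, of 11 gene lists at 10, 25 and 55 weeks, 1 line per list. Interferon-stimulated and MHC class I genes are high at all ages, while the chief, parietal and endocrine lists fall to -3.92, -2.49 and -2.76 at 55 weeks.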

How the data were processed

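RNA of scraped gastric corpus epithelium was made into poly-A libraries with a kit that does not mark strand, and sequenced as paired 75-base reads, per the labels' protocols. The authors deposited whole-number counts of reads per gene, with no normalization. The submitters' processing notes name TopHat2 2.0.14, HTSeq 0.6.1, DESeq2 and the build mm10 (GRCm38). Neither annotation nor strand setting is given in the sources used here. Reads carry no molecular identifiers, so intervals cover counting error only. Without strand, reads where antisense genes overlap cannot be told apart by origin. Counts of near-identical copies (Try10, Amy2b, Mcpt1 and Mcpt2, hemoglobin, MHC, Gbp and Khdc1 genes) are uncertain, since reads that match several copies may be lost.

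Genes were kept by edgeR's filter on expression. Counts were scaled by TMM and fitted in 1 model of 28 libraries with 6 group means (quasi-likelihood test, robust, edgeR 4.0.16, R 4.3.3), and p-values were adjusted by Benjamini-Hochberg over all tested genes, a gene being called under 0.05. Total counts of the 28 libraries ranged from 10982888 to 30891108. The 3 library measures were compared by two-sided exact permutation tests (scipy 1.17.1). Groups came from the labels. Each library is a separate mouse per the labels, and pairs within a genotype at 55 weeks differed by 15.1 to 169 times the sampling noise (chi-square per degree of freedom), so none was a duplicate. The fitting step was tested on simulated counts.

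The members and the 40 gene lists were chosen with earlier results of these data known. The genes named are 36 key genes, the 15 largest differences per direction with separate groups and a mean of at least 1 CPM, the 10 most abundant genes of each genotype, up to 4 called members per list and direction by adjusted p, and, for each change with age, the 5 lowest adjusted p-values upwards and downwards. The others were chosen after their values were seen, among them Bhlha15, Gkn3, Stat2, Irf9, Irf7, Nos2, Gzmb, Ctla4, Cdx1, Cdx2, Sis, Cdh17, Ltf, Lcn2, the genes whose promoters are printed and all genes of the closing observations. Promoter sequences are from RefSeq (GRCm38.p6), gene positions from GENCODE M21. A fold against 0 counts uses a floor of 3 counts over the group. A few genes named by the rule are not reported here.

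The alternatives tried were library size alone or DESeq2 size factors for scaling, no low-count filter, only the libraries compared, the replicate number as a block, DESeq2 1.42.0, limma-voom with sample weights (limma 3.58.1), an adjusted p under 0.01, at least 2-fold, and leaving out each library of 55 weeks. The fit within the second library group was added after seeing the data. Replicate numbers were not used as pairs of mice in the main fit, since the labels name no pairs. Deviations of same-numbered libraries correlated at -0.42 to -0.07, which cannot show whether mice were matched.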

Additional observations from a re-analysis of the deposited data

Results flagged for a closer look

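Among 52 sets of 5 libraries examined, for the genes given per library and the 3 library measures, 3 held a library far from the other 4, and chance sets about 1 in 20 such groups apart. Vil1 was at 55.6 CPM in WT replicate 1, where the other WT libraries lay between 41.3 and 42.1. Vnn1 was at 15.9 CPM in the same library, against 7.66 to 9.23. Cd44 was lowest in WT replicate 4 at 8.92 CPM, against 10.3 to 10.8. All 3 values lay in WT, far from the villin-PPARD ranges.

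The difference between genotypes differed between ages for the genes named by adjusted p and for those given above, each tested as a change of the log2 difference in edgeR's quasi-likelihood test. From 10 to 55 weeks C4bp changed by 5.21, Fads2 by 3.96, Brca1 by 2.76, Fzd1 by 2.68 and Rbbp7 by 2.29. Cd44 changed by 4.03 and H2-Aa by 2.70. Downward changes were -5.29 for Pgc, -3.89 for Hrh2, -3.71 for Pstpip1, -3.17 for Fgfbp1, -2.77 for Gsdma2 and -2.39 for Vars2. Slfn4 at -2.87 and Il33 at -2.36 also moved downwards, from rises at 10 weeks. From 25 to 55 weeks the changes were 5.75 for Shf, 4.75 for C4bp, 3.17 for Shisa2, 2.57 for Fzd1 and 2.17 for Tm7sf2. Downward ones were -3.48 for Hrh2, -2.98 for Fgfbp1, -2.59 for Gsdmc4, -2.34 for Gsdma2 and -1.87 for Dcbld2. No library of 25 weeks carries the library group name of the 55-week libraries. WT replicate 3 of 25 weeks has no group name, and its column name calls it a replacement.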

How the results depend on the processing

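The number of called genes at 55 weeks, 9380, was between 7669 and 10955 under the scalings, filters, tests, stricter threshold and smaller sets of samples tried. It was 4057 at 2-fold or more (1993 higher, 2064 lower). Leaving out 1 library of 55 weeks gave 8819 to 9245 (higher 4591 to 4982, lower 4129 to 4354). Library size alone gave 8645 higher and 2310 lower, since it sets the middle of all genes elsewhere. For the change from 10 to 55 weeks it gave 5937 and 1519, and from 25 weeks 3869 and 1406. Without 1 library the change from 10 weeks was called in 5366 to 5787 genes (2630 to 2967 upwards, 2578 to 2845 downwards), and from 25 weeks in 4144 to 4591 (2044 to 2310 and 2100 to 2318). Within the second library group it was 3636 (1856 and 1780), with fewer samples. The replicate block gave 8800 called genes at 55 weeks, 4987 changes from 10 weeks and 3735 from 25 weeks. Of 229 genes, the block lost the call of Ppard only, and the labels do not say whether the numbers pair mice. The higher total counts of villin-PPARD differed by 4096363 to 7578701 without 1 library and passed the test without WT replicate 4 (exact permutation p = 0.0317). The share of the 10 most abundant genes differed by -19.8 to -18.2 percentage points and the mitochondrial share by -9.91 to -6.51.

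Of 229 genes, the sign turned for Tff2 (0.12), Il33 (0.15), Pdk4 (0.065) and Cldn18 (0.39) with library size alone. Cldn18, close to 0 in all fits, was also at 0.014 without the filter and 0.045 with limma-voom, and between -0.088 and 0.055 without 1 library (0.042 without WT replicate 1, 0.055 and 0.018 without villin-PPARD replicates 1 and 4). Tff2 was called lower with limma-voom (-0.50, adjusted p = 0.014). Gm42418 lost its call with library size alone, without the filter and without any of 5 libraries. Of 120 counts and medians of lists, 51 moved with library size alone, counts by over 1.5 times and medians by over the spread between libraries. Medians of 5 lists turned. Those of PPAR target genes and endothelial markers were 0.073 and 0.33 with library size alone, and that of handling genes -0.0064 with the libraries compared alone. Without 1 library the squamous median lay between -0.39 and 0.81, the fibroblast median between -0.031 and 0.144, the endothelial median between -0.17 and 0.043 and the handling median between -0.072 and 0.138. The turns came without WT replicates 3, 4 and 5 (-0.19, -0.32, -0.22) and villin-PPARD replicates 1, 3 and 4 (-0.072, -0.11, -0.39) for squamous genes, villin-PPARD replicate 3 for fibroblast genes, WT replicate 4 for endothelial genes, and villin-PPARD replicates 2 (-0.033) and 3 (-0.072) for handling genes. The cause was not tested. Where a gene has few counts in a group, depth limits its fold to the interval or bound given.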

Other observations

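The genes below were chosen after their values were seen, and each sentence gives values only. Secreted proteins of goblet cells split at 55 weeks. Fcgbp, a mucus protein that binds IgG, averaged 29.7 ± 12.8 in WT and 3694 ± 1209 CPM in villin-PPARD, and Clca1, a protease of mucus, averaged 49.5 ± 20.6 in WT and 2772 ± 1506 CPM in villin-PPARD, with no overlap in either, while Muc2 fell. The differences of Fcgbp were -0.67 at 10 weeks, -0.77 at 25 weeks and 6.97 at 55 weeks. Cftr, the chloride channel of secreting epithelia, had a difference of 6.02, and Otop2 and Otop3, proton channels, 7.03 and 6.72. Ceacam1, a cell adhesion molecule, and Ly6a, a surface antigen induced by interferon, rose by 5.31 and 5.53 on the log2 scale. Il22ra1, the epithelial receptor for interleukin 22, rose by 4.84.

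Of 6 genes of tuft cells, chemosensory cells of the epithelium, 5 fell and 1 rose. Over all tested genes 27.6% were called lower and 31.7% higher. The 6 were picked with their values known, so their count does not measure tuft cells. Pou2f3, the factor that specifies these cells, averaged 1.6 ± 0.502 in WT and 0.468 ± 0.224 CPM in villin-PPARD, and Dclk1, Trpm5, Gnat3 and Alox5 had differences of -2.40, -1.64, -3.29 and -1.72, all with groups that did not overlap. Avil, also expressed in tuft cells, had a difference of 0.53 with overlapping groups.

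Imprinted genes of the Dlk1-Dio3 locus moved apart. The maternally expressed long RNAs Meg3 and Rian fell by 5.88 and 5.73 on the log2 scale, with Meg3 at 51.3 ± 19.9 in WT and 0.831 ± 0.53 CPM in villin-PPARD and differences of -1.44 at 10 weeks, -2.40 at 25 weeks and -5.88 at 55 weeks. Dio3, an enzyme that inactivates thyroid hormone and is expressed from the paternal allele, averaged 0.0634 ± 0.0917 in WT and 3.12 ± 1.75 CPM in villin-PPARD.

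Gasdermin genes, whose products can open pores in membranes, differed in direction. Gsdmc2, Gsdmc3 and Gsdma had differences of -2.61, -3.94 and -2.66, and Gsdmd, the member cut by inflammatory caspases, was 1.99-fold higher, all with separate groups.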
